A study of Mus musculus with 2 samples.

Results

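Retinal ganglion cells, the output neurons of the eye, were picked out of single-cell RNA libraries of mouse retina at postnatal day 7 by the transcripts they held. The members were chosen by measured values: a barcode had to carry at least 1 unique molecular identifier (UMI, 1 counted RNA molecule) of Rbpms, at least 2 UMIs summed over Nefl, Nefm and Sncg, and at least 1 UMI of Slc17a6, Pou4f1, Pou4f2, Pou4f3 or Isl2. This left 240 ganglion cells among 13480 kept barcodes of the Mettl14-cKO library and 153 among 11361 of the control library, 393 of 24841 in all. The levels of those 9 genes served to select the cells, so they are described below and support nothing.

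The Mettl14-cKO library came from Mettl14 fl/fl;Chx10-Egfp/Cre retinas, in which the Chx10 transgene drives an EGFP and Cre fusion in retinal progenitors, and the control library from Mettl14 fl/fl or fl/wt retinas of the same age. Floxed Mettl14 alleles were thus present in both libraries. Each genotype had 1 library, so no test between genotypes could be made and no p-value is given. All intervals are 95% intervals for counting error alone, and they leave out the spread between animals and preparations. The labels give neither the number or sex of the animals, nor the number of retinas, nor the deleted exons. Chx10-driven Cre is known to act in a mosaic way and only in the retinal lineage, which limits the Mettl14-cKO group as a model of complete loss.

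Ganglion cells are the first neurons born in the retina, and their axons form the optic nerve. Their identity rests on POU-domain and LIM-homeodomain factors (the Pou4f genes, Isl1, Isl2), they release glutamate loaded by the vesicular transporter encoded by Slc17a6, and their long axons are rich in neurofilament. They divide into many types with different light responses, each with its own transcription factors and neuropeptides. METTL14 binds RNA for METTL3, the enzyme that methylates adenosines inside messages (N6-methyladenosine, m6A).

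Ganglion cells of the Mettl14-cKO library were shallower than those of the control library. Their median depth was 9448.5 UMIs (range 1174 to 45635) and 3559 genes per cell in the Mettl14-cKO library, against 14910 UMIs (1144 to 38340) and 4267 genes per cell in the control library. Summed over the cells, 2915925 UMIs of Mettl14-cKO and 2221004 UMIs of control ganglion cells entered the comparison. Over all kept barcodes the medians were close, at 3213 UMIs in the Mettl14-cKO and 3493 UMIs in the control library. Mitochondrial transcripts made up 3.38% of the ganglion cell UMIs in the Mettl14-cKO and 3.89% in the control library. The libraries shared 57 cell barcodes, none of them a ganglion cell, and a doublet caller marked 9 Mettl14-cKO members (3.75%) and 14 control members (9.15%).

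RNA of other retinal cells was found in some members of both libraries, and in CPM the rod markers differed most. The 12 rod markers summed to 2213 CPM (UMIs of a gene per 1000000 UMIs of the summed cells) in Mettl14-cKO and 1191 CPM in control ganglion cells, with no rod marker at 0 in either library. That sum rested on few cells: per 10000 UMIs of a cell, the rod markers had a median of 2.47 and a maximum of 349 in Mettl14-cKO members, and a median of 3.58 and a maximum of 366 in control members. At least 10 rod UMIs were held by 23 Mettl14-cKO (9.58%) and 24 control members (15.7%). The 10 cone markers summed to 334 CPM in Mettl14-cKO and 161 CPM in control members.

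Markers of other classes were read in the same way. The 12 amacrine markers stood at 352 CPM in Mettl14-cKO and 354 CPM in control members, and the 14 bipolar markers at 432 CPM in Mettl14-cKO and 494 CPM in control members. The 12 Müller glia markers stood at 421 CPM in Mettl14-cKO and 323 CPM in control members, and the 9 horizontal cell markers at 348 CPM in Mettl14-cKO and 317 CPM in control members. Lower sums were found for pericyte and endothelial markers (29.8 CPM in Mettl14-cKO, 12.6 CPM in control members), astrocyte markers (34.98 CPM in Mettl14-cKO, 18.5 CPM in control members) and progenitor markers (31.6 CPM in Mettl14-cKO, 19.4 CPM in control members). Microglia markers stood at 33.6 CPM in Mettl14-cKO and 33.3 CPM in control members, and the endothelial genes Cldn5 and Cdh5 had 0 UMIs in members of either. Isl1, also listed below as a ganglion cell factor, led the bipolar sum, with 508 of 1261 UMIs in Mettl14-cKO and 477 of 1097 in control members. Pax6 led the amacrine sum, with 511 of 1025 UMIs in Mettl14-cKO and 471 of 787 in control members. These sums thus need not come from other cells alone. The part that RNA of other cells plays in the comparisons below was not tested, except where values without the affected cells are given.

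The label was checked against ganglion cell genes outside the rule. Thy1, the cell-surface protein used to purify ganglion cells, stood at 391.99 CPM in Mettl14-cKO and 379 CPM in control ganglion cells, whereas in all other kept barcodes it stood at 6.36 CPM in the Mettl14-cKO and 5.48 CPM in the control library. The 12 genes most concentrated in the members, ranked by the lower of both libraries' ratios of CPM in ganglion cells to CPM in all other kept barcodes, were Nrn1, Thy1, Fxyd7, Calb2, Rgs4, Hspb1, Fkbp1b, Resp18, Rbpms2, S100a10, Tppp3 and Vsnl1. Nrn1, which encodes the neurite-promoting protein neuritin, led with a ratio of 104, followed by Thy1 with 61.7, and Vsnl1 closed the list with 16.5. Several of these are long-used ganglion cell markers, so the leading genes do not go against the label. Of the 12, only Calb2 met the rule for a difference between the libraries given below.

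Some members stood close to the edge of the rule. Exactly 1 UMI of Rbpms, an RNA-binding protein, was held by 53 Mettl14-cKO and 21 control members, and exactly 1 UMI over the transcription factor and transporter genes by 29 Mettl14-cKO and 17 control members. Just outside, 74 Mettl14-cKO and 52 control barcodes met every condition but Rbpms, and 58 Mettl14-cKO and 49 control barcodes every condition but the last. Thy1 was found in 71.7% of Mettl14-cKO and 47.6% of control members with a single Rbpms UMI, and in 25.9% of Mettl14-cKO and 10.2% of control barcodes that failed on the last condition alone. The edge of the rule thus runs through cells with and without Thy1 in both libraries.

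The share of ganglion cells was higher in the Mettl14-cKO library among all kept barcodes, and the interval of the ratio held 1 when rods were left out of the total. Ganglion cells were 1.78% of kept barcodes in the Mettl14-cKO library (1.56 to 2.02) and 1.35% in the control library (1.14 to 1.58), a ratio of 1.32 (1.07 to 1.63). Rods were taken as barcodes outside the ganglion cells with at least 10 UMIs over a set of rod markers that holds Sag, Pdc, Gngt1 and Nrl, and with more rod than cone, bipolar, amacrine or Müller glia marker UMIs. They made up 32.2% of the Mettl14-cKO and 46.8% of the control library. Among barcodes outside that rod gate, ganglion cells were 2.63% in the Mettl14-cKO (2.31 to 2.98) and 2.53% in the control library (2.15 to 2.96), a ratio of 1.04 (0.844 to 1.28). With the ganglion cells that held at least 10 rod UMIs left out as well, a choice made after seeing the data, the shares were 2.38% in the Mettl14-cKO and 2.14% in the control library, a ratio of 1.11 (0.890 to 1.39). Amacrine cells, the interneurons that share the inner retina with ganglion cells, were gated on Tfap2a or Tfap2b with Pax6 and without Rbpms. There were 11.8 ganglion cells per 100 amacrine cells in the Mettl14-cKO library (10.2 to 13.4) and 12 in the control library (10.1 to 14.2), a ratio of 0.980 (0.797 to 1.21).

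**Figure D1:**
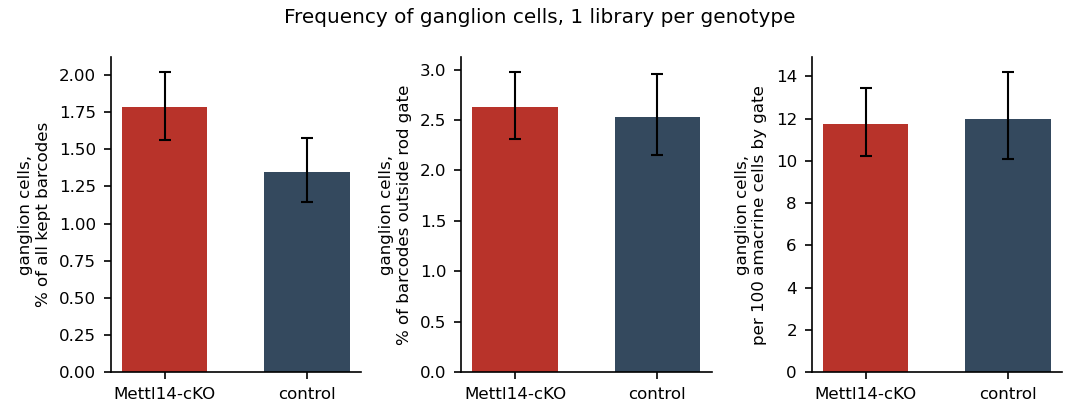
Frequency of ganglion cells in the Mettl14-cKO (red, left) and control (dark, right) library, as a percentage of all kept barcodes, as a percentage of barcodes outside the rod gate and per 100 amacrine cells by gate. Bars are the values of 1 library each and error bars exact 95% intervals for counting error; only in the first pair, 1.78% in the Mettl14-cKO and 1.35% in the control library, does each value lie outside the other's interval.

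The first ratio also depended on the rule itself. With at least 2 UMIs of Rbpms required, 187 Mettl14-cKO and 132 control cells were left and the ratio was 1.19 (0.950 to 1.504), an interval that includes 1. Without Slc17a6 in the last condition it was 1.18 (0.948 to 1.48), and with every barcode thinned to 1500 UMIs it was 1.09 (0.775 to 1.54).

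The combination of identity genes differed between the libraries, although these genes chose the cells and the values are a description. Slc17a6 was found in 88.3% of Mettl14-cKO and 81.7% of control members, and a Pou4f gene in 81.7% of Mettl14-cKO and 90.2% of control members. Members that qualified through Slc17a6 alone were 41 in the Mettl14-cKO (17.1%; 12.5 to 22.5) and 11 in the control library (7.19%; 3.64 to 12.5). Isl2, a LIM-homeodomain factor known for ganglion cells that project to the opposite side of the brain, was found in 20% of Mettl14-cKO and 38.6% of control members, at 29.5 CPM in Mettl14-cKO and 70.7 CPM in control cells.

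Levels of the other rule genes ranged from near equality to a clear gap. Slc17a6 stood at 322 CPM in Mettl14-cKO and 353 CPM in control ganglion cells, Pou4f1 at 243 CPM in Mettl14-cKO and 257 CPM in control cells, and Pou4f2 at 51.1 CPM in Mettl14-cKO and 53.1 CPM in control cells. Pou4f3, the POU factor best known for hair cells and a subset of ganglion cells, stood at 55.9 CPM in Mettl14-cKO and 90.05 CPM in control cells. Rbpms had 663 CPM in Mettl14-cKO and 815 CPM in control cells. The neurofilament light chain gene Nefl had 4097 CPM in Mettl14-cKO and 4939 CPM in control cells, and the medium chain gene Nefm 1761 CPM in Mettl14-cKO and 2207 CPM in control cells. Sncg, which encodes gamma-synuclein, had 2232 CPM in Mettl14-cKO and 3340 CPM in control cells. All 9 genes had a lower summed level in the Mettl14-cKO members.

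Mettl14 (ENSMUSG00000028114), the targeted gene, occupies bases 123368297 to 123386108 of the minus strand of chromosome 3 on GRCm38. It had 12 UMIs in Mettl14-cKO ganglion cells, or 4.12 CPM (2.13 to 7.19), against 26 UMIs in control ganglion cells, or 11.7 CPM (7.65 to 17.2). The ratio was 0.352 (0.162 to 0.722), and Mettl14 was found in 5% of Mettl14-cKO and 14.4% of control members. Both levels were lower than in the other cells, where Mettl14 stood at 15.02 CPM in the Mettl14-cKO and 27.8 CPM in the control library, a ratio of 0.540 (0.495 to 0.588). The intervals of these ratios overlap. The counts report the 3′ end of transcripts, so a message that lost an inner exon can still be counted.

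Cdkn1a, which encodes the cell-cycle inhibitor p21 and is a p53 target, stood out in ganglion cells by its level in the control library. It had 361 CPM (340 to 384) in Mettl14-cKO and 299 CPM (276 to 322) in control ganglion cells, a ratio of 1.21 (1.10 to 1.34). In rods the gene had 123 CPM in the Mettl14-cKO and 10.8 CPM in the control library, a ratio of 11.4 (10.1 to 12.9). In amacrine cells it had 95.8 CPM in the Mettl14-cKO and 39.6 CPM in the control library, a ratio of 2.42 (2.13 to 2.76). The interval of the ratio in ganglion cells overlapped neither of these. Cdkn1a was found in 74.2% of Mettl14-cKO and 75.2% of control ganglion cells.

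**Figure D2:**
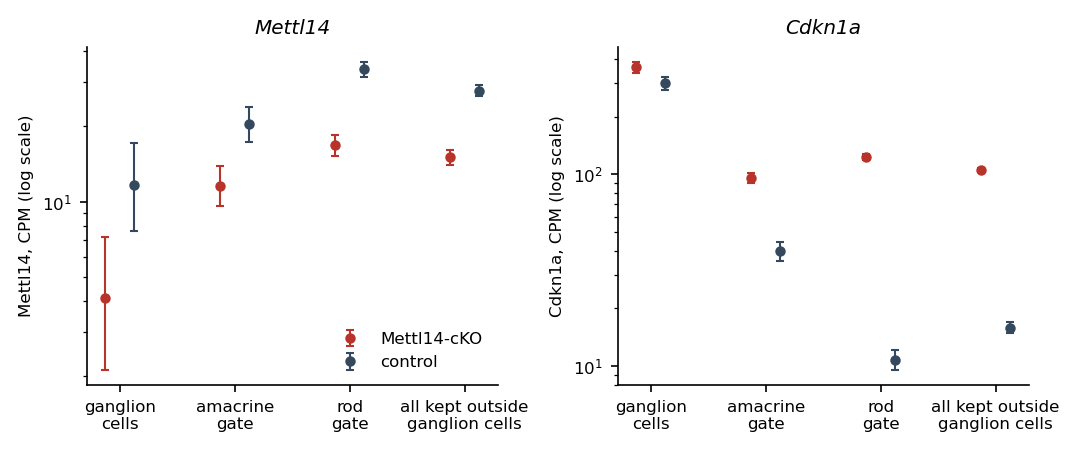
Summed level of Mettl14 (left panel) and Cdkn1a (right panel) in CPM on log axes, in ganglion cells, amacrine cells by gate, rods by gate and all kept barcodes outside the ganglion cells, with Mettl14-cKO (red) left of control (dark). Points are sums of 1 library and error bars exact 95% Poisson intervals; Mettl14 is lower in each Mettl14-cKO class, while Cdkn1a is at 361 CPM (Mettl14-cKO) and 299 CPM (control) in ganglion cells and at 123 CPM (Mettl14-cKO) and 10.8 CPM (control) in rods.

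For each of 8951 genes with at least 50 UMIs over both sums, levels in ganglion cells were set side by side; Mettl14 had too few UMIs to enter. A gene was called higher or lower when its ratio reached 1.5-fold in either direction and the 95% Poisson interval of its level in one library lay wholly outside that in the other, which is a rule of size and not a test. In Mettl14-cKO ganglion cells 379 genes were higher (4.23%) and 160 lower (1.79%), and the median log2 ratio over all genes was 0.01. The 160 hold Isl2 and Pou4f3, which served to select the cells. Without the rule genes, ribosomal protein genes and mitochondrially encoded genes, 379 were higher and 156 lower of 8851. Amacrine cells, thinned to the same UMI totals, had 664 higher (7.08%) and 431 lower genes (4.59%) of 9383. The list counts below are to be read beside these shares over all genes of the same class. With every member thinned to 3000 UMIs, 3704 genes had enough UMIs, and 102 were higher (2.75%) and 57 lower (1.54%). Of the 102 and the 57, 63 and 20 were also called in that direction without thinning.

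**Figure D3:**
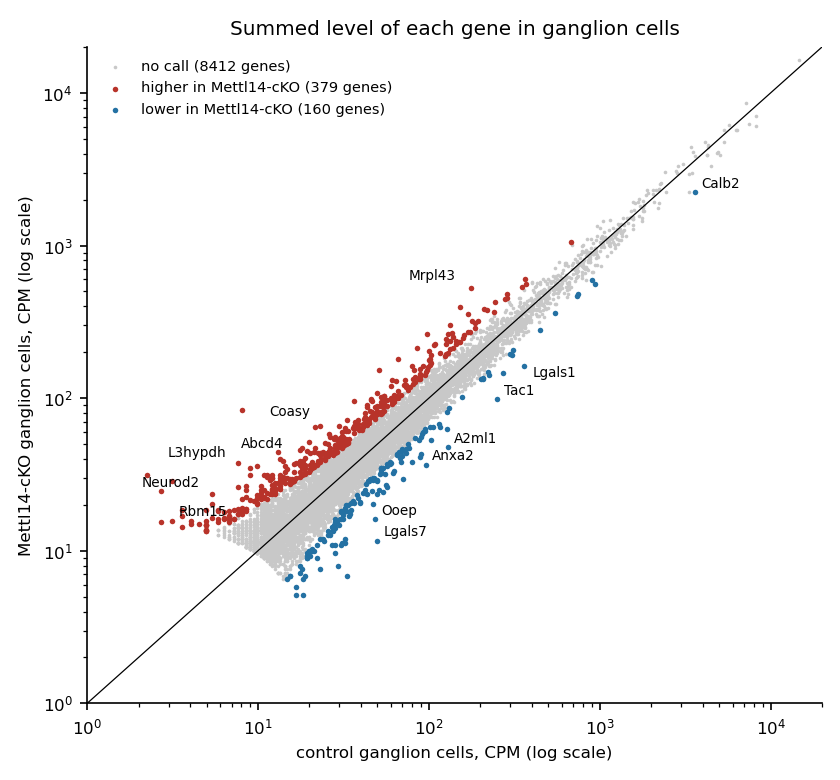
Level of each of 8951 genes in Mettl14-cKO ganglion cells (vertical) against control ganglion cells (horizontal), in CPM on log axes, with the line of equal level. Red points are the 379 genes called higher and blue points the 160 called lower; Mrpl43, at 525 CPM in Mettl14-cKO and 177 CPM in control cells, lies above the line, and Calb2, at 2244 CPM in Mettl14-cKO and 3599 CPM in control cells, below it.

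L3hypdh, Abcd4 and Mrpl43 were among the 15 genes with the highest ratios. L3hypdh, which encodes a hydroxyproline dehydratase (chromosome 12, 72073428 to 72085439), had 110 UMIs and 37.7 CPM in Mettl14-cKO and 17 UMIs and 7.65 CPM in control ganglion cells, a log2 ratio of 2.30. Abcd4, which encodes a lysosomal transporter needed for vitamin B12 use (chromosome 12, 84601464 to 84617413), had 104 UMIs in Mettl14-cKO and 22 UMIs in control cells, a log2 ratio of 1.85. Mrpl43, a subunit gene of the mitochondrial ribosome (chromosome 19, 45004829 to 45006442), had the most UMIs of these. L3hypdh and Abcd4 were called higher in amacrine cells too, at log2 ratios of 2.03 and 2.34.

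Mrpl43 had 1531 UMIs and 525 CPM (499 to 552) in Mettl14-cKO ganglion cells, against 393 UMIs and 177 CPM (160 to 195) in control ganglion cells. It was found in 86.3% of Mettl14-cKO and 78.4% of control members, and its log2 ratio of 1.57 in ganglion cells stood beside 1.51 in amacrine cells. Mterf4, which acts in the assembly of the mitochondrial ribosome, had a log2 ratio of 1.58 and was found in 46.7% of Mettl14-cKO and 27.5% of control members. Coasy, the gene of coenzyme A synthase (chromosome 11, 101082565 to 101086619), had 65.5 CPM in Mettl14-cKO and 23.0 CPM in control members, a log2 ratio of 1.51. These genes were also called higher in amacrine cells, at log2 ratios of 1.03 for Mterf4 and 1.20 for Coasy.

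Among other genes with the highest ratios, Rpp25 and Slc1a1, like Rcvrn and Smim40 below, were called in ganglion cells but not in amacrine cells. Rpp25, a subunit gene of the RNA-processing enzyme RNase P (chromosome 9, 57504026 to 57505448), had 31.6 CPM in Mettl14-cKO and 11.3 CPM in control ganglion cells, a log2 ratio of 1.49, beside -0.07 in amacrine cells. Slc1a1, a neuronal glutamate transporter gene, had 51.8 CPM in Mettl14-cKO and 19.8 CPM in control ganglion cells, a log2 ratio of 1.39 (0.89 to 1.91), beside -0.11 (-0.32 to 0.10) in amacrine cells. The ganglion and amacrine intervals did not overlap for either gene. Lrrn2, Mdk, Fgfbp3 and the noncoding Snhg10 were also in the set, at log2 ratios of 1.47, 1.44, 1.39 and 1.53. Each of these 4 was called higher in amacrine cells too.

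Rcvrn, Smim40, Cdkn1c and the glial glutamate transporter gene Slc1a2 also ranked among the highest, the first 3 although a smaller share of Mettl14-cKO than of control members held them. Rcvrn, which encodes the photoreceptor calcium sensor recoverin, had 449 UMIs in Mettl14-cKO and 114 UMIs in control ganglion cells, a log2 ratio of 1.58, yet was found in 25.4% of Mettl14-cKO and 31.4% of control members. In members under 10000 UMIs its log2 ratio was -1.13, and in deeper members 2.24. Smim40 (-0.69 and 1.91) and Cdkn1c (-0.64 and 1.71) had the same split by depth. In amacrine cells Rcvrn (log2 ratio 0.25) and Smim40 (0.57) were not called, Slc1a2 (0.63) was called higher and Cdkn1c (-0.65) lower. Rcvrn, Smim40 and Slc1a2 lost their calls when members with at least 10 rod UMIs were left out. The cone gene Pde6h was similarly carried by few cells: it had 245 UMIs in Mettl14-cKO and 18 UMIs in control members, and was found in 5.42% of Mettl14-cKO and 7.84% of control members.

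Among the genes with the lowest ratios, some, such as A2ml1, were concentrated in ganglion cells, while Tac1 was also found in amacrine cells. Tac1, the precursor gene of the neuropeptide substance P (chromosome 6, 7554879 to 7565834), had 286 UMIs and 98.1 CPM (87.0 to 110) in Mettl14-cKO ganglion cells. In control ganglion cells it had 559 UMIs and 252 CPM (231 to 273), which gave a log2 ratio of -1.36. In amacrine cells by gate Tac1 had 92.7 CPM in the Mettl14-cKO and 147 CPM in the control library. It was called lower there too, at a log2 ratio of -0.67. A2ml1, a protease inhibitor gene of the alpha-2-macroglobulin family (chromosome 6, 128539821 to 128581608), had 48.0 CPM in Mettl14-cKO and 129 CPM in control ganglion cells, a log2 ratio of -1.43. A2ml1 was at or below 0.844 CPM in the other kept barcodes of both libraries.

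The peptide genes Gal and Crhbp were also lower. Gal, the galanin gene (chromosome 19, 3409915 to 3414544), had 38.4 CPM in Mettl14-cKO and 79.7 CPM in control ganglion cells, a log2 ratio of -1.05. Crhbp, which encodes a binding protein of corticotropin-releasing hormone, had 42.9 CPM in Mettl14-cKO and 90.5 CPM in control ganglion cells, a log2 ratio of -1.08. The galectin gene Lgals1 had 162 CPM in Mettl14-cKO and 362 CPM in control cells (log2 -1.17), and its relative Lgals7 11.7 CPM in Mettl14-cKO and 49.98 CPM in control cells (log2 -2.10), the lowest ratio named. In amacrine cells Lgals1 was called lower too, at a log2 ratio of -1.22, and Lgals7 had too few UMIs for a call. Anxa2, which encodes the membrane-binding annexin that pairs with the S100a10 product, had 36.7 CPM in Mettl14-cKO and 96.4 CPM in control cells (log2 -1.39), while S100a10 itself had 713 CPM in Mettl14-cKO and 814 CPM in control cells and was not called.

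The remaining low genes were Ooep, Cst6, Efcab1, Rapsn, Kif22, Lypd1, Hist3h2a and Spats2l. Ooep, known from the maternal protein complex of oocytes, was found in 13.3% of Mettl14-cKO and 45.1% of control ganglion cells, and its log2 ratio was -1.58 in ganglion and -2.22 in amacrine cells. The others had log2 ratios of -1.52 for Cst6, -1.48 for Efcab1, -1.46 for Rapsn, -1.43 for Kif22, -1.22 for Lypd1, -1.15 for Hist3h2a and -1.12 for Spats2l. Cst6 (-1.10), Efcab1 (-1.19), Rapsn (-1.43), Kif22 (-0.64) and Hist3h2a (-1.12) were called lower in amacrine cells too, as was Ooep. Spats2l (-0.08) was not called there, and Lypd1 (0.67) was called higher. All 15 low genes named had a negative log2 ratio both in members under 10000 UMIs and in deeper ones, as 12 of the 15 high genes had a positive one. These genes were ranked on the sum of the same members, so the shared sign is a description and supports no call. In members under 10000 UMIs Rapsn rested on 2 UMIs in each library, and Gal stood at a log2 ratio of -0.04. Of the high genes, Snhg10 rested there on 1 control UMI, and L3hypdh, Rpp25 and Lrrn2 on 2 control UMIs each. The 3′ ends of Mterf4, Rcvrn, Lypd1, Lgals7, Efcab1, Rapsn and Slc1a1 overlap genes on the other strand, and that of Hist3h2a overlaps Trim17. How strand was used in the counting is not given in the sources used here, so the values of these 8 genes are uncertain.

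Of 20 general ganglion cell markers outside the rule, none was higher and 2 were lower in Mettl14-cKO cells, with a median log2 ratio of -0.22. The 2 were Calb2, which encodes the calcium-binding protein calretinin, and Adcyap1, which encodes the neuropeptide PACAP. Calb2 had 2244 CPM in Mettl14-cKO and 3599 CPM in control ganglion cells, a log2 ratio of -0.68. In amacrine cells Calb2 was called lower too, at 123 CPM in the Mettl14-cKO and 336 CPM in the control library, a log2 ratio of -1.45. Adcyap1 had 50.1 CPM in Mettl14-cKO and 75.6 CPM in control ganglion cells, a log2 ratio of -0.60. Nrn1 had 463 CPM in Mettl14-cKO and 643 CPM in control cells, a log2 ratio of -0.47 that missed the fold of the rule. Stmn2, a growth-cone protein gene, stood at 4405 CPM in Mettl14-cKO and 4284 CPM in control cells. Without members that held at least 10 rod UMIs, neither Calb2 nor Adcyap1 was called. In amacrine cells at matched UMI totals, 1 of 14 of these markers was higher and 4 were lower (median -0.17). Over all genes of that class 7.08% were higher and 4.59% lower.

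Of 19 ganglion cell transcription factors with enough counts none was called, beside 4.23% of all genes higher and 1.79% lower. Their median log2 ratio was -0.07. Ebf1, a helix-loop-helix factor gene that is also among the 20 markers, had 425 CPM in Mettl14-cKO and 405 CPM in control cells. Isl1, likewise in both lists, acts with Pou4f2 in ganglion cell differentiation and had 174 CPM in Mettl14-cKO and 215 CPM in control cells. Sox11, Irx2 and Irx4 each had log2 ratios between 0.05 and 0.07. Klf9, a Krüppel-like factor gene, had 74.8 CPM in Mettl14-cKO and 105 CPM in control cells, a log2 ratio of -0.49, and more rods than ganglion cells held it at equal depth.

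Ganglion cell types were read from their known factors and peptides, with each cell thinned to 3000 UMIs so that depth was equal, which left 216 Mettl14-cKO and 135 control cells. The share of rods by gate with a UMI, at the same depth, is given beside the first genes as a comparison. Cartpt, whose peptide marks direction-selective ganglion cells, was found in 8.33% of Mettl14-cKO (5.01 to 12.9) and 19.3% of control cells (12.98 to 26.9), against 1.02% of Mettl14-cKO and 1.67% of control rods. Tac1 was found in 12.96% of Mettl14-cKO (8.79 to 18.2) and 27.4% of control cells (20.1 to 35.7), against 0.552% of Mettl14-cKO and 0.893% of control rods. For both genes the intervals did not overlap, and both genes were also called lower in amacrine cells by gate. Unthinned, Cartpt was found in 12.9% of Mettl14-cKO and 32.0% of control cells and Tac1 in 19.2% of Mettl14-cKO and 36.6% of control cells.

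Cells rich in Cartpt were a smaller share of the Mettl14-cKO members, with a similar level in each library. At least 2 UMIs of Cartpt were held by 18 Mettl14-cKO (7.5%; 4.51 to 11.6) and 25 control cells (16.3%; 10.9 to 23.2), shares taken at full depth with intervals that overlap. Within these cells, chosen on that gene, Cartpt stood at 1575 CPM in the Mettl14-cKO and 1533 CPM in the control library. The factor gene Tfap2d stood at 257 CPM in the Cartpt cells and 28.2 CPM in the remaining members of the Mettl14-cKO library. In the control library Tfap2d stood at 140 CPM in the Cartpt cells and 24.98 CPM in the remaining members. Pou4f3, a rule gene, had 169 CPM in the Cartpt cells of the Mettl14-cKO library and 44.8 CPM in its remaining members, and 163 CPM in the Cartpt cells of the control library and 74.9 CPM in its remaining members.

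Cartpt was also lower in amacrine cells by gate, at 243 CPM in the Mettl14-cKO and 991 CPM in the control library, a log2 ratio of -2.03 beside -0.91 in ganglion cells. Cartpt RNA outside ganglion cells was thus higher in the control library. Its part in the share of control ganglion cells with a Cartpt UMI was not tested.

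The shares of intrinsically photosensitive cells had overlapping intervals. Eomes, their factor gene, was found in 4.63% of Mettl14-cKO (2.24 to 8.35) and 3.7% of control cells (1.21 to 8.43), and Opn4, the melanopsin gene, in 4.63% of Mettl14-cKO (2.24 to 8.35) and 5.93% of control cells (2.59 to 11.3). At least 2 UMIs of Eomes, Opn4 or Tbx20 were held by 23 Mettl14-cKO (9.58%) and 14 control members (9.15%). These cells had little Pou4f1: 24.1 CPM in the Mettl14-cKO and 60.0 CPM in the control library, against 288 CPM in the remaining members of each library. Igf1, the insulin-like growth factor gene, was high in them, at 570 CPM in the Mettl14-cKO and 704 CPM in the control library, against 131 CPM in the remaining Mettl14-cKO and 145 CPM in the remaining control members.

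Factors of other types gave small numbers of cells. Foxp2 was found in 5.56% of Mettl14-cKO (2.90 to 9.50) and 8.15% of control cells (4.14 to 14.1), Tbr1 in 1.85% of Mettl14-cKO and 1.48% of control cells, and Tfap2d in 11.1% of Mettl14-cKO and 8.89% of control cells. All these intervals overlapped. Cells with at least 2 UMIs of Foxp2 numbered 13 in the Mettl14-cKO and 12 in the control library and were rich in Pou4f1, at 735 CPM in the Mettl14-cKO and 725 CPM in the control library, against 214 CPM in the remaining Mettl14-cKO and 218 CPM in the remaining control members. The summed level of Foxp2 was called lower, at 18.2 CPM in Mettl14-cKO and 32.0 CPM in control ganglion cells, a log2 ratio of -0.81.

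Neurod2, a factor of neuronal differentiation that marks a set of ganglion cell types, went the other way. It had 69 UMIs and 23.7 CPM (18.4 to 29.95) in Mettl14-cKO ganglion cells, against 12 UMIs and 5.40 CPM (2.79 to 9.44) in control ganglion cells, a log2 ratio of 2.13. At least 2 UMIs were held by 16 Mettl14-cKO cells (6.67%; 3.86 to 10.6) and by 1 control cell, which alone held 8 UMIs. At 3000 UMIs it was found in 6.02% of Mettl14-cKO (3.24 to 10.1) and 0.741% of control cells (0.0188 to 4.06), intervals that overlap, and the control share lay below the 1.40% of control rods. The Mettl14-cKO cells with at least 2 UMIs of Neurod2 had 743 CPM of Sncg, against 2346 CPM in the remaining Mettl14-cKO members. In amacrine cells the log2 ratio of Neurod2 was -0.30. Thinned to the ganglion UMI totals, amacrine cells held 99 UMIs of Neurod2 in the Mettl14-cKO and 89 UMIs in the control library. Both counts were above those of the ganglion cells. The part of amacrine RNA in the ganglion cell values of Neurod2 was not tested.

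**Figure D4:**
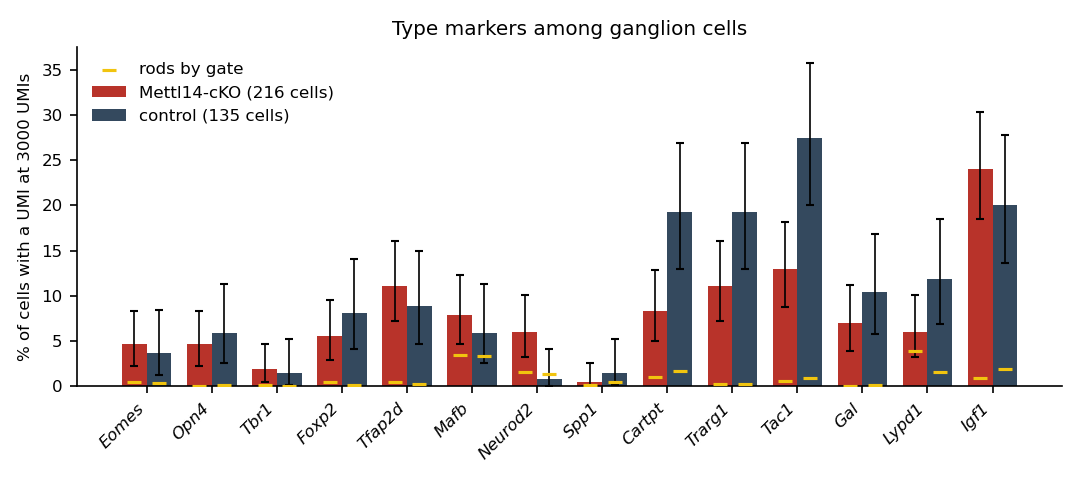
Percentage of ganglion cells with at least 1 UMI of 14 type factor and type marker genes, each cell thinned to 3000 UMIs, with Mettl14-cKO (red, 216 cells) left of control (dark, 135 cells). Error bars are exact 95% binomial intervals and yellow dashes the share of rods by gate; Cartpt (8.33% of Mettl14-cKO, 19.3% of control cells) and Tac1 (12.96% of Mettl14-cKO, 27.4% of control cells) have intervals that do not overlap.

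By summed levels, 1 of 24 type factors was higher (Neurod2) and 1 lower (Foxp2), with a median log2 ratio of 0.05. Of 19 type markers 1 was higher and 5 were lower, with a median of -0.10, beside 4.23% and 1.79% of all genes. The 5 were Tac1, Lypd1, Gal, Cartpt and Trarg1, a gene of vesicle trafficking known from fat cells, with 47.0 CPM in Mettl14-cKO and 77.0 CPM in control cells. The higher one was Nfib, a nuclear factor I gene with 24.0 CPM in Mettl14-cKO and 10.4 CPM in control cells. Nfib was found, at 3000 UMIs, in 24.6% of Mettl14-cKO and 10.99% of control rods, above its 7.87% of Mettl14-cKO and 4.44% of control ganglion cells. The part of RNA from other cells in its values was not tested. In amacrine cells at matched UMI totals, 0 of 16 type markers were higher and 7 lower, with a median of -0.40. Over all genes of that class 7.08% were higher and 4.59% lower.

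None of 34 neurofilament, microtubule and transport genes was called, beside 4.23% of all genes higher and 1.79% lower, and the median log2 ratio was 0.03. Equal weight for every cell and the fold alone gave 2 higher and 0 lower (median 0.10), beside 11.6% and 7.13% of all genes. The largest differences were in Map1a, a microtubule-associated protein gene with 328 CPM in Mettl14-cKO and 231 CPM in control cells, and in the dynein gene Dync1i1 with 44.9 CPM in Mettl14-cKO and 65.3 CPM in control cells. Nefh, the heavy neurofilament chain gene, had 141 CPM in Mettl14-cKO and 104 CPM in control cells, a log2 ratio of 0.44 beside -0.27 for Nefl and -0.33 for Nefm.

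Of 36 axon guidance genes 1 was higher and 2 were lower, with a median log2 ratio of 0.04, and these counts changed with the weight of the cells. With the same weight for every cell and the fold alone, 8 were higher and none lower (median 0.31), beside 11.6% and 7.13% of all genes. In members of at least 10000 UMIs, 1 was higher and 5 were lower of 32 (median -0.21), beside 4.18% and 2.17% of all genes. Igf1r, the insulin-like growth factor receptor gene, had 55.2 CPM in Mettl14-cKO and 30.2 CPM in control cells, a log2 ratio of 0.87. Slit2, a repellent ligand gene, had 18.2 CPM in Mettl14-cKO and 32.9 CPM in control cells (log2 -0.85), and the teneurin gene Tenm1 had 67.6 CPM in Mettl14-cKO and 115 CPM in control cells (log2 -0.77). Robo2, a Slit receptor gene of ganglion cell axons, had 151 CPM in Mettl14-cKO and 180 CPM in control cells and was not called. Epha5, an ephrin receptor gene used in retinotopic mapping, had 500 CPM in Mettl14-cKO and 453 CPM in control cells.

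Of 30 voltage-gated channel and related genes only Ano3, of the anoctamin family, was called, with 10.3 CPM in Mettl14-cKO and 20.7 CPM in control cells (log2 -1.01). The median was 0.01, and it was -0.01 under both other scalings. With the same weight for every cell and the fold alone, 6 were higher and 2 lower (median 0.32), beside 11.6% and 7.13% of all genes. In members of at least 10000 UMIs none of 29 was called (median -0.08), beside 4.18% of all genes higher and 2.17% lower. The sodium channel gene Scn2a had 182 CPM in both libraries. Of 32 transmitter receptor genes 2 were higher and 2 lower, with a median of 0.11. Equal weight and the fold alone gave 13 higher and 1 lower (median 0.39), beside 11.6% and 7.13% of all genes. Members of at least 10000 UMIs gave 0 higher and 4 lower of 28 (median -0.16), beside 4.18% and 2.17% of all genes. The NMDA receptor subunit genes Grin2d (34.6 CPM in Mettl14-cKO, 18.9 CPM in control cells) and Grin3a (38.4 CPM in Mettl14-cKO, 23.0 CPM in control cells) were higher. The AMPA receptor gene Gria3 (28.5 CPM in Mettl14-cKO, 49.5 CPM in control cells) and the GABA receptor gene Gabra2 (37.7 CPM in Mettl14-cKO, 60.3 CPM in control cells) were lower. Gria3 and Gabra2 had log2 ratios of -0.80 and -0.68 in ganglion cells, beside 0.33 and 0.48 in amacrine cells.

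Among 29 presynaptic genes Syt4 alone was called, with 362 CPM in Mettl14-cKO and 545 CPM in control ganglion cells (log2 -0.59), and the median was -0.13. Amacrine cells at matched UMI totals had 6 lower and none higher of 28, with a median of -0.37, beside 4.59% of all genes lower and 7.08% higher. Snap25, a gene of the release machinery, had 733 CPM in Mettl14-cKO and 1014 CPM in control ganglion cells, a log2 ratio of -0.47 beside -0.75 in amacrine cells.

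Of 20 neurotrophic receptor and survival genes only Igf1r was called, beside 4.23% higher and 1.79% lower over all genes, and the median log2 ratio was 0.14. Ntrk2, the BDNF receptor gene, had 57.6 CPM in Mettl14-cKO and 56.3 CPM in control cells, and Bax, a cell death effector gene required for developmental loss of ganglion cells, had 282 CPM in Mettl14-cKO and 226 CPM in control cells. Of 22 axon injury genes Gal and Jun were lower and none higher, with a median of -0.07. Jun, the transcription factor gene induced by axon injury and by dissociation, had 58.0 CPM in Mettl14-cKO and 90.9 CPM in control cells, a log2 ratio of -0.65, and it was the only one called of 11 immediate early genes (median -0.07).

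Of 16 p53 targets Phlda3, a repressor of Akt signalling, was called higher, with 21.9 CPM in Mettl14-cKO and 11.3 CPM in control cells (log2 0.96), and none was lower. The median was 0.10, and the p53 target Mdm2 had 37.7 CPM in Mettl14-cKO and 35.6 CPM in control cells. Of 16 stress and unfolded protein response genes Pdia4, an endoplasmic reticulum disulfide isomerase gene, was called higher, with 43.6 CPM in Mettl14-cKO and 25.2 CPM in control cells (log2 0.79), and the median was 0.14.

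None of 22 glycolysis and hypoxia genes was called in ganglion cells, beside 4.23% of all genes higher and 1.79% lower. Their median log2 ratio was 0.10. With the same weight for every cell and the fold alone 5 were higher and none lower (median 0.02), beside 11.6% and 7.13% of all genes. In amacrine cells at matched UMI totals 5 of 23 were lower and 0 higher (median -0.35), beside 4.59% of all genes lower and 7.08% higher. Gapdh had 3403 CPM in Mettl14-cKO and 3067 CPM in control ganglion cells, a log2 ratio of 0.15 beside -0.37 in amacrine cells. Of 50 nuclear genes of oxidative phosphorylation 1 was higher and none lower in ganglion cells (median -0.06), and 1 was higher and 3 were lower in amacrine cells (median -0.35). The gene called in ganglion cells was Uqcrfs1, of respiratory complex III, with 561 CPM in Mettl14-cKO and 370 CPM in control cells (log2 0.60). The difference between the classes was not tested.

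**Figure D5:**
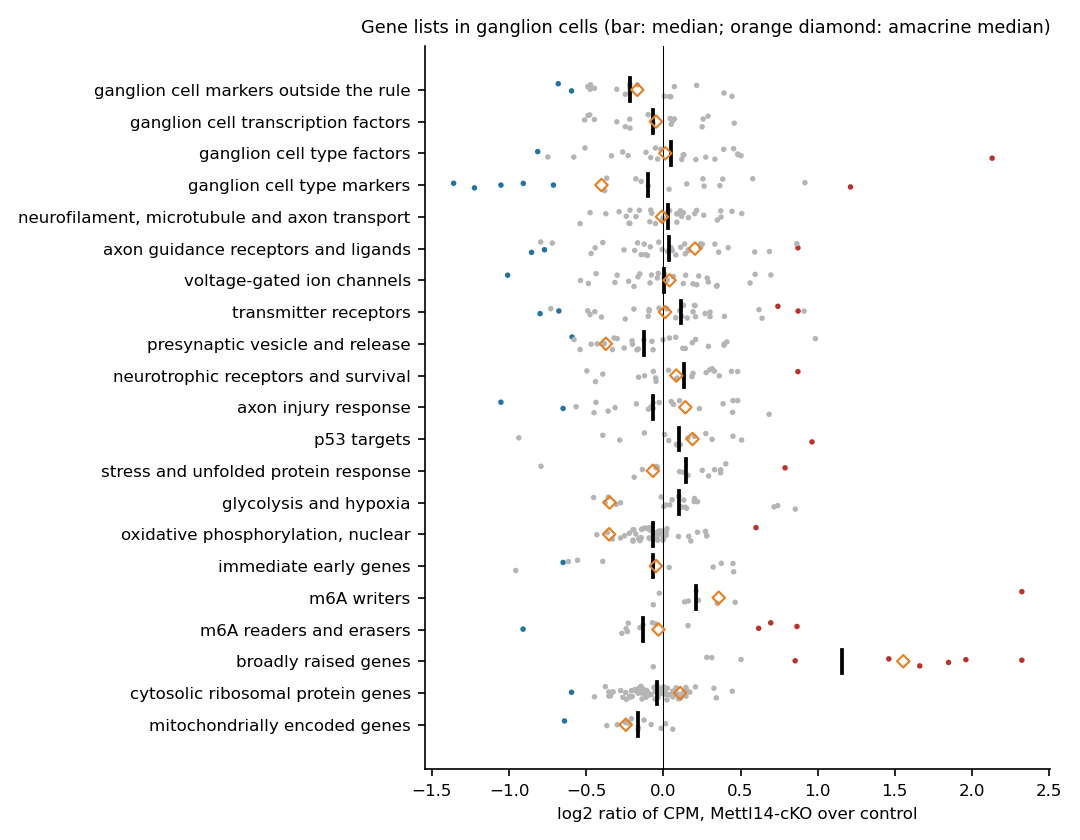
Log2 ratio of CPM (Mettl14-cKO over control) in ganglion cells for the genes of 21 lists with at least 50 UMIs, 1 point a gene, red where called higher and blue where called lower. Black bars are the medians in ganglion cells and orange diamonds the medians in amacrine cells at matched UMI totals; most medians in ganglion cells lie within 0.2 of 0, and that of the broadly raised genes is at 1.16.

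Among the genes of the m6A machinery, 1 of 9 writer genes with enough counts was higher and none lower, with a median log2 ratio of 0.21. It was Rbm15 (chromosome 3, 107325421 to 107333673), which recruits the writer complex to RNA, with 46 UMIs and 15.8 CPM in Mettl14-cKO and 7 UMIs and 3.15 CPM in control ganglion cells, a log2 ratio of 2.32. Mettl3, the catalytic subunit gene, had 16.1 CPM in Mettl14-cKO and 14.4 CPM in control cells. Of 13 reader and eraser genes 3 were higher and 1 lower, with a median of -0.13. Over all genes 4.23% were higher and 1.79% lower. Ythdf2, which targets methylated messages for decay, had 68.9 CPM in Mettl14-cKO and 37.8 CPM in control cells (log2 0.87), and the nuclear reader gene Ythdc1 had 161 CPM in Mettl14-cKO and 99.5 CPM in control cells (log2 0.70). Ythdf1, with a log2 ratio of 0.62, was at -0.12 when every member was thinned to 3000 UMIs. Rbmx had 24.7 CPM in Mettl14-cKO and 46.4 CPM in control cells (log2 -0.91), close to its log2 ratio of -0.92 in amacrine cells.

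A list of 12 genes that earlier results on these libraries had shown higher across the retina is not independent evidence of its direction. Of the 10 with enough counts in ganglion cells 6 stood higher and 0 lower (median log2 ratio 1.16), beside 10 of 11 and 1.55 in amacrine cells at matched UMI totals. The 6 were Rbm15, Zfp758, Abcd4, Lcmt2, Zfp992 and Lsm10, with log2 ratios of 2.32, 1.96, 1.85, 1.66, 1.46 and 0.85. Rbm15b, Cntnap5a, Lrtm2 and Gdf11 were not called in ganglion cells, at log2 ratios of -0.07, 0.28, 0.31 and 0.50. Rbm15b, a close relative of Rbm15, had 23.7 CPM in Mettl14-cKO and 24.8 CPM in control ganglion cells, and a log2 ratio of 0.90 in amacrine cells.

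Of 59 called genes that the naming rule or the lists hold, 45 were still called without the members that held at least 10 rod UMIs. Those not called there had fewer UMIs by construction and kept their sign. Calb2, Adcyap1, Igf1r, Syt4 and Ythdf1 stood at log2 ratios of -0.50, -0.48, 0.50, -0.58 and 0.59. Nfib, Ano3, Phlda3, Pdia4, Rbm15, Zfp758 and Slc1a2 stood at 0.87, -0.92, 0.99, 0.71, 1.97, 2.25 and 0.96, past the fold but with overlapping intervals or too few UMIs. Rcvrn and Smim40 were at 0.06 and 0.01.

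Without members that held any UMI of Sag, Pdc, Gngt1 or Nrl or the amacrine gate's genes, 58 Mettl14-cKO and 7 control cells were left, and 73 genes were higher and 63 lower of 2407. Of the 59 genes 46 had a ratio there, 4 were called, Cartpt among them in the other direction, and 14 of the 46 had the opposite sign, among them Cartpt with a log2 ratio of 1.87, A2ml1 with 0.31 and Lypd1 with 0.35. The control side of these values rested on 7 cells. With the same weight for every cell, Rcvrn, Smim40, Gal, Trarg1, Slit2, Tenm1, Gabra2, Syt4, Uqcrfs1 and Ythdc1 did not reach the fold of the rule. With at least 2 UMIs of Rbpms required, Mdk, Adcyap1, Foxp2, Nfib, Igf1r, Phlda3, Pdia4, Rbm15, Ythdf1 and Zfp758 were not called, and Mdk stood at 0.78 there. In members of at least 10000 UMIs, Nfib, Ano3, Grin2d, Grin3a, Phlda3, Pdia4, Rbm15, Zfp992, Lcmt2 and Zfp758 were not called. Without the cells marked as doublets, Jun, Ythdf1 and Zfp758 were not called, at log2 ratios of -0.53, 0.52 and 1.60.

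Of 78 ribosomal protein genes Rpl29 alone was called, with 598 CPM in Mettl14-cKO and 904 CPM in control ganglion cells (log2 -0.60), and the median was -0.04. Of 13 mitochondrially encoded genes mt-Nd3 alone was called, with 469 CPM in Mettl14-cKO and 732 CPM in control ganglion cells (log2 -0.64), and the median was -0.16. Xist, transcribed from the inactive X chromosome, had 598 CPM in Mettl14-cKO and 625 CPM in control ganglion cells, and 4 Y-linked genes had 0 UMIs in the members of both libraries.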

How the data were processed

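Retinas of postnatal day 7 mice were dissociated with papain and captured with the 10x Genomics 3′ kit, per the labels' protocols. The authors deposited raw UMI counts per gene and barcode for 32285 genes, made with Cell Ranger 6.1.1 on mm10 per the submitters' processing notes and the file headers. Intron use and the annotation version are not given in the sources used here. The libraries held 15319 (Mettl14-cKO) and 13287 (control) barcodes with 59856468 and 55921787 UMIs.

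Barcodes were kept with at least 1000 UMIs, at least 500 genes and at most 15% mitochondrial UMIs, and members were selected by the rule in the report. Scrublet, run in scanpy 1.11.5, marked doublets (rate set to 0.8% for every 1000 barcodes). These stayed in, and leaving them out was an alternative. UMIs were summed over members per library and scaled to 1000000 (CPM) with Python 3.11.15, numpy 2.4.6, scipy 1.17.1 and pandas 2.3.3. Levels have exact Poisson, ratios exact conditional and shares Clopper-Pearson 95% intervals. Amacrine sums were thinned to the ganglion totals for counts and list medians, and single amacrine ratios use all amacrine cells by gate. Positions are from GENCODE M21 (GRCm38, the build mm10).

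Named genes were Mettl14, the 15 highest and 15 lowest ratios among called genes (minimum 100 UMIs over both sums, and detection in 10% or more of the cells of 1 library), without mitochondrial, ribosomal, clone-named and other-cell-type marker genes, the 12 genes most concentrated in members, and list members. Other genes named, Pde6h and those given as examples within a list, were picked after their values were seen. The members, lists and gates were chosen with earlier results of these data known. Alternatives covered scaling, equal weight per cell, thinning, doublets, the rule's thresholds, RNA of other cells and the call rule. One further comparison on RNA of other cells is not reported here.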

Additional observations from a re-analysis of the deposited data

Results flagged for a closer look

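Lypd1, a modulator gene of nicotinic receptors, and Cdkn1c, the gene of the cell-cycle inhibitor p57, were called in opposite directions in ganglion and amacrine cells. The log2 ratio of Lypd1 was -1.22 in ganglion cells (20.2 CPM in Mettl14-cKO, 47.3 CPM in control) and 0.67 in amacrine cells (39.5 CPM in Mettl14-cKO, 24.8 CPM in control). That of Cdkn1c was 1.40 in ganglion cells (96.0 CPM in Mettl14-cKO, 36.5 CPM in control) and -0.65 in amacrine cells (138 CPM in Mettl14-cKO, 216 CPM in control). Both classes came from the same 2 libraries, so the difference was not tested. Cdkn1c was found in 14.6% of Mettl14-cKO and 16.3% of control ganglion cells, and its log2 ratio was negative in ganglion cells under 10000 UMIs.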

How the results depend on the processing

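The ratio of shares of ganglion cells was 1.04 with barcodes outside the rod gate as the denominator, an alternative chosen after seeing the data. Under the other alternatives it lay between 1.09 and 1.39, and that per amacrine cell between 0.848 and 1.04. Counts of higher and lower genes were 1035 and 638 when every cell had the same weight and the fold alone was used. With members thinned to 3000 UMIs they were 102 and 57, of 3704 genes with enough UMIs there. A lower fold in the call rule gave 594 and 371, and 2-fold gave 146 and 56. Under both other scalings, without doublets, with 2 Rbpms UMIs, without members with 10 rod UMIs, in members of at least 10000 UMIs and at minimums of 30 or 100 UMIs, counts stayed within 1.5 times those reported. The log2 ratio of Ythdf1 (-0.12) reversed with thinning, which leaves fewer UMIs by construction. A further alternative chosen after seeing the data left out members with any UMI of Sag, Pdc, Gngt1 or Nrl or with amacrine genes. It kept 58 Mettl14-cKO and 7 control cells, with 73 genes higher and 63 lower of 2407. The log2 ratios of Smim40 (-2.24), Cdkn1c (-1.72), Lgals7 (0.45), A2ml1 (0.31), Lypd1 (0.35), Crhbp (1.30), Foxp2 (0.54), Cartpt (1.87), Tenm1 (0.0011), Grin3a (-0.72), Gabra2 (1.40), Pdia4 (-0.87), Ythdf2 (-0.17) and Lcmt2 (-0.46) reversed there, and beyond the small number of cells the cause was not tested. Of 59 called genes that the naming rule or the lists hold, all 59 were still called under both other scalings, 56 without doublets, 49 with 2 Rbpms UMIs, 49 with the same weight for every cell, 49 in members of at least 10000 UMIs, 45 without members with 10 rod UMIs, and 13 with thinning. Of the 46 with a ratio in the comparison that kept 7 control cells, 4 were called there, Cartpt among them in the other direction. With 1 library per genotype, depth limits genes under 50 UMIs and types of few cells, and intervals and limits cover counting error only. No paired analysis was possible because each genotype has 1 library and no result comes from a test.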
